A study of Mus musculus with 5 samples.

Results

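Vascular endothelial growth factor (VEGF) genes were examined in the heart ventricles of mouse embryos exposed to caffeine through the dam. The group holds 4 ligand genes, Vegfa, Vegfb, Vegfc and Pgf, and 3 receptor genes, Flt1, Kdr and Flt4. These 7 genes, of 18307 RefSeq genes in the deposited table, were taken by their symbols, and their transcripts by the gene each was listed under. The 3 caffeine libraries came from CD-1 embryos, an outbred strain with no altered allele, whose dams were given caffeine by injection, 20 mg/kg on each day between E6.5 and E9.5. The 2 vehicle libraries came from CD-1 embryos whose dams received 0.9% NaCl on the same days. Ventricles were dissected at E10.5, and each library was a pool of embryos sharing dams, so that single embryos and litters were not resolved.

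VEGF ligands are secreted dimers that bind receptor tyrosine kinases on endothelial cells. Vegfa acting on Kdr is the main signal for endothelial growth and vessel formation, and Flt1 binds the same ligand tightly with weaker signalling, so that it can act as a decoy. In the embryonic heart, myocardium and endocardium signal to each other through this system while trabeculae, cushions and the first coronary vessels form. Caffeine blocks adenosine receptors.

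RefSeq gene totals were 21713381 to 23530555 counts in the caffeine libraries and 22397199 and 25048134 counts in the vehicle libraries. The correlation of log2 expression between libraries, taken across genes, lay between 0.982 and 0.992. The cardiac genes of the labelled tissue were abundant in every library: Myh6, a myosin heavy chain, lay at 2599 to 3409 CPM in caffeine libraries and at 3411 and 3647 CPM in vehicle libraries. Nkx2-5, a cardiac transcription factor, lay at 264 to 335 CPM (counts scaled to the TMM-adjusted library total, the unit of level used throughout) in caffeine libraries and at 237 and 288 CPM in vehicle libraries. Pecam1 and Cdh5, adhesion proteins of the endothelial cells that carry the receptors, lay at 131 to 175 and 272 to 310 CPM in caffeine libraries, against 162 to 163 and 307 to 328 CPM in vehicle libraries.

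Levels of the 7 genes were ordered as CPM per kilobase of the longest annotated transcript, as means over the 5 libraries. Vegfb, a ligand of Flt1, came highest with 117 CPM per kilobase (range 102 to 131). Kdr, the main signalling receptor, followed with 30.04 CPM per kilobase (28.3 to 34.0), and Vegfa with 22.8 CPM per kilobase (18.2 to 27.2). Flt1, the decoy receptor, had 6.54 CPM per kilobase (5.67 to 8.04). Flt4, the receptor of Vegfc, had 6.02 CPM per kilobase (5.22 to 6.64). Vegfc, known for lymphatic and venous growth, had 5.51 CPM per kilobase (3.80 to 7.83). Pgf, placental growth factor, a ligand of Flt1, came lowest with 2.68 CPM per kilobase (2.28 to 3.05). The ranges of Flt1, Flt4 and Vegfc overlapped along this order, and the other neighbours did not overlap. For Vegfa the length used was 3451 bases, that of NM_009505, which held 41.1% to 55.0% of Vegfa counts over the 5 libraries. Other Vegfa forms are annotated at 1973 and 975 bases, and such lengths would raise the Vegfa value. The separation of Kdr from Vegfa therefore depends on the length chosen. Pgf also had the fewest reads, with 84 to 99 counts in caffeine libraries and 106 and 115 counts in vehicle libraries.

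All 7 genes passed the filter on low counts, and none passed an adjusted p of 0.05 (FDR 0.05, edgeR quasi-likelihood test with Benjamini-Hochberg adjustment over 13829 genes), where 1 gene in the whole table did (0.00723%). None of the 7 passed with DESeq2 or limma-voom. An unadjusted p under 0.05 was reached by 1 of the 7, Vegfa, against 5.2% of all tested genes. Fitted log2 fold changes, caffeine minus vehicle, were positive for 3 genes (Vegfa, Vegfb and Vegfc) and negative for 4 (Pgf, Flt1, Kdr and Flt4). Their median was -0.15 on the log2 scale, beside 0.01 over all tested genes. Every caffeine library lay above both vehicle libraries for 1 of the 7, Vegfa, against 11.2% of all genes. Every caffeine library lay below both vehicle libraries for 2 of the 7, Pgf and Kdr, against 9.27% of all genes. The ventricle is a mixture of cell types, in which fewer cells of a type and less RNA per cell cannot be told apart.

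**Figure D1:**
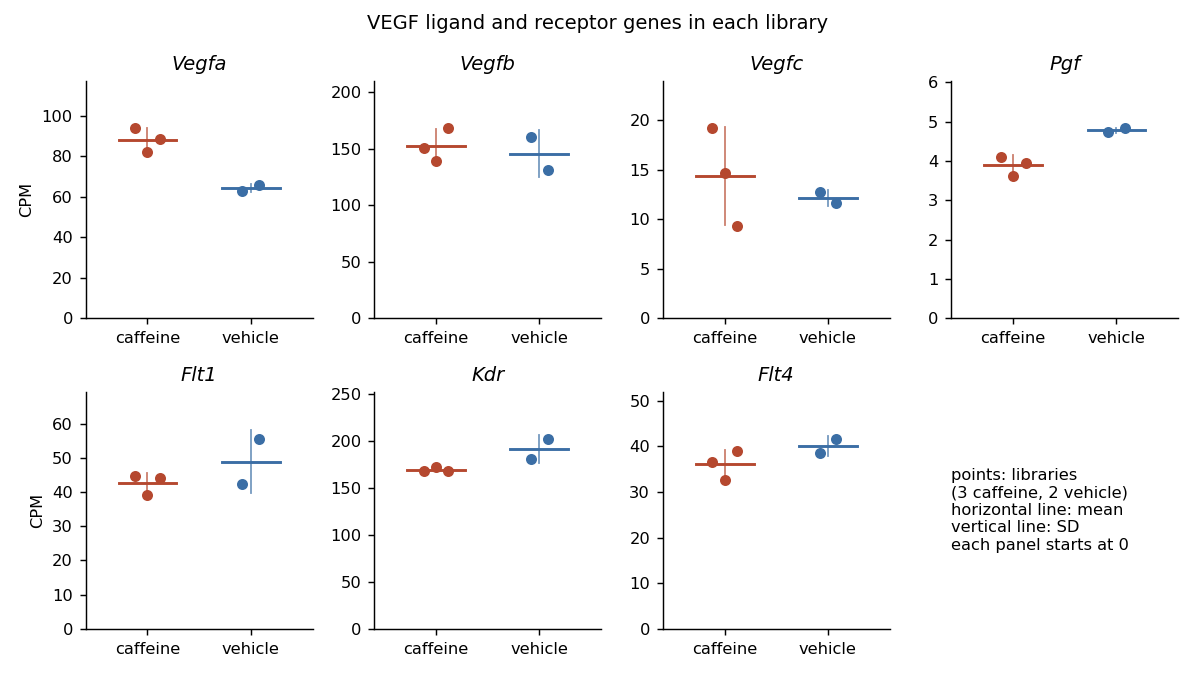
CPM of each VEGF ligand and receptor gene in each library, 3 caffeine and 2 vehicle, with the mean as a horizontal line and the SD as a vertical line; each panel has its own axis from 0. The 3 caffeine libraries of Vegfa lie between 82.1 and 93.8 CPM, above both vehicle libraries, while those of Pgf and Kdr lie below both.

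Vegfa, the principal ligand of Kdr, had 93.8, 82.1 and 88.6 CPM in the caffeine libraries, against 62.9 and 66.0 CPM in the vehicle libraries. The groups did not overlap, and the gap between the lowest caffeine and the highest vehicle library was wider than the spread within either group. Vegfa averaged 88.2 ± 5.87 CPM in caffeine libraries (SD, n = 3) and 64.4 ± 2.19 CPM in vehicle libraries (SD, n = 2). Its log2 fold change was 0.45 (SE 0.13, 95% interval 0.17 to 0.74), a fold of 1.37. In edgeR it ranked 92 of 13829 genes by p, with an unadjusted p of 0.00466 and an adjusted p of 0.691, so the difference did not pass the threshold over all genes. Across the alternative scalings, filters, tools and libraries left out, the log2 fold change stayed between 0.41 and 0.51 and the adjusted p between 0.261 and 1.00. Vegfa lies at chr17:46016993-46032377 on the minus strand (mm10), and no exon of another gene overlaps its exons.

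The other ligands had intervals that included 0. Vegfb had 151, 139 and 168 CPM in caffeine libraries, against 160 and 131 CPM in vehicle libraries. The groups overlapped, and the log2 fold change was 0.07 (SE 0.14, 95% interval -0.24 to 0.37), or -0.10 without vehicle replicate 2 and 0.22 without vehicle replicate 1. Vegfc had 19.2, 14.7 and 9.30 CPM in caffeine libraries, against 12.8 and 11.6 CPM in vehicle libraries. The caffeine libraries held both the highest and the lowest value of Vegfc, and its log2 fold change was 0.24 (SE 0.26, 95% interval -0.35 to 0.82); without caffeine replicate 1 it was -0.02, and without caffeine replicate 3 it was 0.47. Pgf had 4.11, 3.61 and 3.95 CPM in caffeine libraries, against 4.74 and 4.83 CPM in vehicle libraries. Its caffeine libraries were all the lower ones, with a log2 fold change of -0.30 (SE 0.23, 95% interval -0.79 to 0.19). The adjusted p of Vegfb, Vegfc and Pgf was 0.999 in each case (edgeR). Figf, which encodes the ligand VEGF-D and was examined with the co-receptors, had 0.499 to 1.83 CPM in caffeine libraries, against 0.865 and 0.947 CPM in vehicle libraries. On mm10, Vegfb lies at chr19:6982472-6987651 and Pgf at chr12:85166639-85177313, both on the minus strand, and Vegfc at chr8:54077532-54186454 on the plus strand.

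All 3 receptor genes had negative log2 fold changes, none past the threshold. Kdr had 168, 172 and 168 CPM in caffeine libraries, against 181 and 202 CPM in vehicle libraries. The caffeine libraries lay close together and below both vehicle libraries, and the log2 fold change was -0.17 (SE 0.12, 95% interval -0.44 to 0.09), or -0.11 with no scaling beyond total counts. Flt1 had 44.6, 39.1 and 44.0 CPM in caffeine libraries, against 42.3 and 55.4 CPM in vehicle libraries. Vehicle replicate 2 stood above the rest, the groups overlapped, and the log2 fold change was -0.20 (SE 0.15, 95% interval -0.53 to 0.13). Without vehicle replicate 2 it was -0.02, and without vehicle replicate 1 it was -0.38. Flt4, best known in lymphatic endothelium and also made by endocardium and early vessels, had 36.6, 32.7 and 38.9 CPM in caffeine libraries, against 38.5 and 41.5 CPM in vehicle libraries. These overlapped as well, and the log2 fold change was -0.15 (SE 0.14, 95% interval -0.46 to 0.16), or -0.08 without caffeine replicate 2 and -0.09 with no scaling. The adjusted p of each receptor was 0.999 (edgeR). Kdr and Flt1 lie on chromosome 5, at chr5:75933270-75978428 and chr5:147562196-147725988, both on the minus strand (mm10), and Flt4 at chr11:49609679-49652739 on the plus strand.

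**Figure D2:**
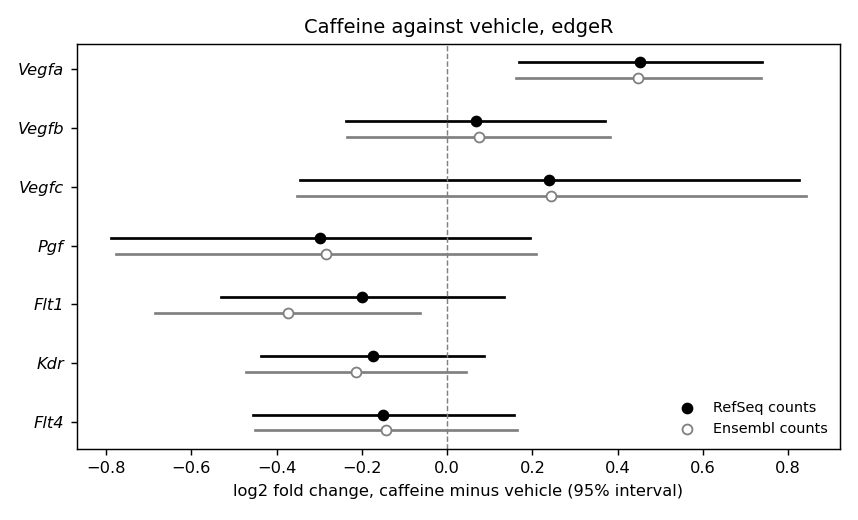
Log2 fold change, caffeine minus vehicle, with its 95% interval for each VEGF ligand and receptor gene, from the RefSeq counts (filled points) and the Ensembl counts (open points). The interval of Vegfa lies above 0 on both annotations (0.45 on each), and that of Flt1 excludes 0 on the Ensembl counts only, at -0.37 against -0.20 on RefSeq counts.

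Flt1 was the member that depended most on the annotation. In the Ensembl gene counts it had 61.8, 52.0 and 55.6 CPM in caffeine libraries, against 66.4 and 80.04 CPM in vehicle libraries, and the groups no longer overlapped. Its log2 fold change there was -0.37 (SE 0.14, 95% interval -0.69 to -0.06), with an unadjusted edgeR p of 0.0226 and an adjusted p of 0.685. Vegfa, Pgf and Kdr were without overlap on the Ensembl counts too, as on RefSeq counts. Shares over all Ensembl genes were not counted. On RefSeq counts, 9.27% of genes lay lower in every caffeine library and 5.2% had an unadjusted edgeR p under 0.05. The Ensembl count exceeded the RefSeq count of Flt1 by 507, 383 and 332 reads in caffeine libraries, against 698 and 656 reads in vehicle libraries. Flt1 makes a full-length membrane receptor and a shorter secreted form that traps ligand. The RefSeq transcript table listed the full-length transcript alone, NM_010228, with 1333 coding codons. GENCODE also annotates a shorter Flt1 transcript with 688 coding codons, which was not among the transcripts of that table. In the Ensembl transcript table the counts fell mainly on Flt1-001 and Flt1-002, whose structures the table does not give, so neither is called soluble here. Flt1-002 held 42.6%, 37.5% and 33.8% of Flt1 counts in caffeine libraries, against 39.6% and 43.6% in vehicle libraries. The groups overlapped, and the difference of means was -3.63 percentage points (two-sided exact permutation test, p = 0.4, where 0.1 is the smallest p that 3 against 2 libraries allow). It was -1.56 without caffeine replicate 3, -1.62 without vehicle replicate 2, -5.65 without vehicle replicate 1 and -5.96 without caffeine replicate 1.

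Ratios within a library set the ligand against its receptors. Flt1 stood to Kdr at 0.266, 0.228 and 0.262 in caffeine libraries, against 0.234 and 0.275 in vehicle libraries, as ratios of CPM. These overlapped, and the difference of the mean log2 ratio was -0.02 (two-sided exact permutation test, p = 1); it turned to 0.05 without caffeine replicate 2 and to 0.10 without vehicle replicate 2. On the Ensembl counts the difference was -0.16 (two-sided exact permutation test, p = 0.3). The ratio of Vegfa to Kdr, chosen after the values were seen and given as a description, was 0.559, 0.478 and 0.527 in caffeine libraries, against 0.348 and 0.327 in vehicle libraries. Vegfa against Vegfb, likewise a description, was 0.621, 0.591 and 0.527 in caffeine libraries, against 0.392 and 0.504 in vehicle libraries. Neither of these Vegfa ratios overlapped between the groups. For Vegfa over Kdr this had to be so, since Vegfa was higher and Kdr lower in every caffeine library. It is therefore not a separate result. Set against the summed CPM of 23 endothelial and endocardial markers, Kdr stood at 62.4, 76.2 and 70.1 CPM per 1000 endothelial CPM in caffeine libraries, against 70.8 and 79.1 in vehicle libraries. On that scale Kdr overlapped between the groups, as did Flt1 (16.6, 17.4 and 18.3 in caffeine libraries, against 16.6 and 21.8 in vehicle libraries). Flt4 on the same scale also overlapped, at 13.6, 14.5 and 16.2 in caffeine libraries, against 15.1 and 16.3 in vehicle libraries. Vegfa on that scale did not overlap, at 34.9, 36.5 and 36.9 in caffeine libraries, against 24.7 and 25.9 in vehicle libraries.

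**Figure D3:**
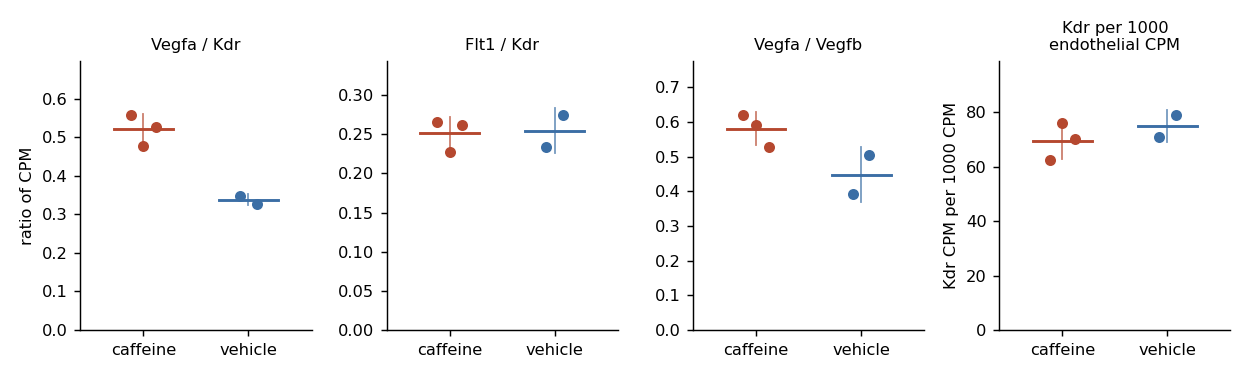
Ratio of Vegfa to Kdr, of Flt1 to Kdr and of Vegfa to Vegfb (CPM over CPM), and Kdr CPM per 1000 CPM of endothelial markers, in each of 3 caffeine and 2 vehicle libraries, with mean (horizontal) and SD (vertical). Vegfa over Kdr lies at 0.478 to 0.559 in caffeine libraries and at 0.327 and 0.348 in vehicle libraries. That separation follows from Vegfa being higher and Kdr lower in every caffeine library. Flt1 over Kdr and Kdr over the endothelial markers overlap.

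Vegfa is made as several splice forms that differ in how tightly they bind heparan sulphate outside the cell, through basic stretches encoded by 2 alternative exons. The RefSeq table listed 6 Vegfa transcripts. NM_001025250 carries both alternative exons (392 coding codons), NM_009505 carries exon 7 without exon 6 (368 coding codons), and NM_001025257 carries neither (324 coding codons), counted by the exons of NM_001025250. The sequences below are the coding bases that separate these 3 forms, 5′ to 3′ on the minus strand, from GENCODE M21 transcripts on GRCm38. Capitals mark in-frame lysine and arginine codons, the basic residues. Exon 6 lies at chr17:46022277-46022348, is 72 bases long and has 12 such codons among the 23 codons wholly inside it. Exon 7 lies at chr17:46020991-46021122, is 132 bases long and has 9 among 43.
Vegfa exon 6: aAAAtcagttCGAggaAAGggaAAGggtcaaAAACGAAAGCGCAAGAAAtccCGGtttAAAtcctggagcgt
Vegfa exon 7: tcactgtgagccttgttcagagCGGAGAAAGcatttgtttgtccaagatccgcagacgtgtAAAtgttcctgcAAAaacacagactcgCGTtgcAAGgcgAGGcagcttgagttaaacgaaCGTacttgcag

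**Figure D4:**
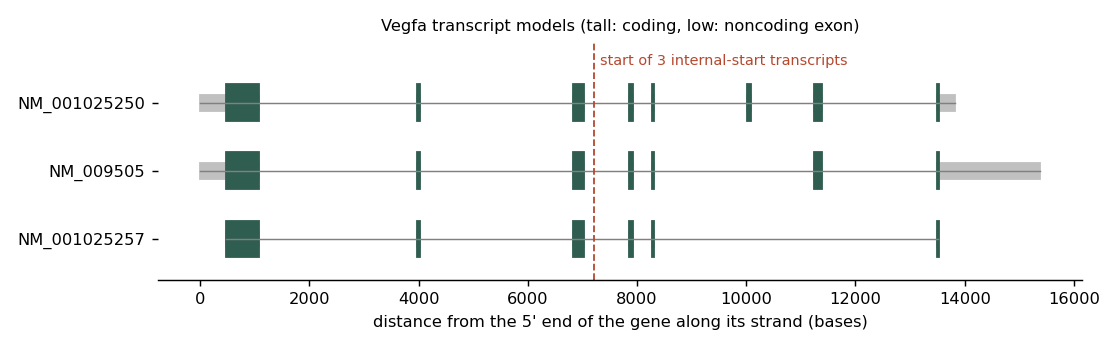
GENCODE exon models of the 3 Vegfa transcripts listed from the gene's 5′ end, plotted as distance in bases from that end (tall boxes coding, low boxes noncoding, lines introns). The model of NM_001025257 runs from 479 to 13511. That of NM_001025250 ends at 13826 and that of NM_009505 at 15376. In the counts all 3 are listed with the same start and end. The dashed line, 7206 bases from the 5′ end and 184 bases past exon 3, is where the 3 internal-start transcripts begin.

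NM_009505, which keeps exon 7 and skips exon 6, had 42.9, 45.0 and 39.7 CPM in caffeine libraries, against 25.8 and 29.2 CPM in vehicle libraries. The groups did not overlap, with a log2 fold change of 0.63 (SE 0.14, 95% interval 0.30 to 0.96). NM_001025250, with both exons, had 27.7, 18.5 and 24.2 CPM in caffeine libraries, against 22.6 and 24.6 CPM in vehicle libraries. Both vehicle libraries lay inside the range of the caffeine libraries, with a log2 fold change of -0.01 (SE 0.20, 95% interval -0.47 to 0.45). NM_001025257, with neither exon, had 8.79, 7.41 and 11.6 CPM in caffeine libraries, against 7.60 and 6.85 CPM in vehicle libraries. These overlapped, with a log2 fold change of 0.36 (SE 0.26), or 0.16 without caffeine replicate 3 and 0.16 with the replicate block.

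The other 3 Vegfa transcripts, NM_001110266, NM_001110267 and NM_001110268, are listed from a start at base 46025163 of chromosome 17 (mm10), inside intron 3. NM_001110267 had 8.34, 7.79 and 7.63 CPM in caffeine libraries, against 3.25 and 2.49 CPM in vehicle libraries. Each caffeine library was more than 2 times as high as each vehicle library, and the log2 fold change was 1.46 (SE 0.26, 95% interval 0.86 to 2.06). NM_001110266 overlapped between the groups, at 4.94, 2.53 and 4.18 CPM in caffeine libraries against 2.88 and 2.13 CPM in vehicle libraries. NM_001110268 lay higher in every caffeine library, at 0.954, 0.642 and 1.41 CPM against 0.576 and 0.317 CPM in vehicle libraries, with a log2 fold change of 1.15 (SE 0.56, 95% interval -0.17 to 2.46), or 0.76 without vehicle replicate 2.

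No transcript passed FDR 0.05 in edgeR (0% of 18418 tested), while 7.36% had an unadjusted p under 0.05. Of the 6 Vegfa transcripts, the 2 under that p were NM_001110267 (unadjusted p 5.68e-04, adjusted p 0.216, rank 46) and NM_009505 (unadjusted p 0.00234, adjusted p 0.288, rank 149). DESeq2, which called 194 transcripts, gave these 2 an adjusted p of 0.00146 and 0.0215. All caffeine libraries lay above all vehicle libraries for 3 of the 6 Vegfa transcripts, against 12.2% of all transcripts, and below them for none of the 6, against 11% of all transcripts. These counts rest on the authors' sharing of reads among transcripts that are identical over most of their length, an assignment error that no test here includes.

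**Figure D5:**
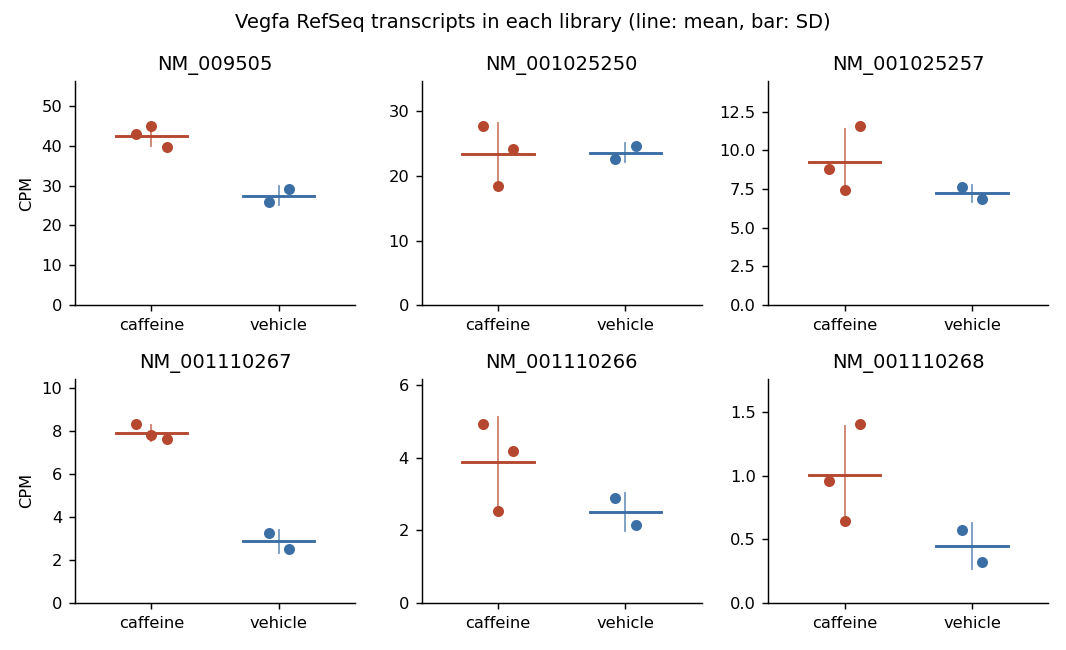
CPM of the 6 RefSeq transcripts of Vegfa in each of 3 caffeine and 2 vehicle libraries, with mean (horizontal) and SD (vertical); each panel has its own axis from 0. NM_009505, NM_001110267 and NM_001110268 are higher in every caffeine library, while NM_001025250 covers 18.5 to 27.7 CPM in caffeine libraries and 22.6 to 24.6 CPM in vehicle libraries.

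As shares of all Vegfa counts, NM_009505 held 45.8%, 55.0% and 44.8% in caffeine libraries, against 41.1% and 44.5% in vehicle libraries. NM_001025250 held 29.6%, 22.6% and 27.3% in caffeine libraries, against 36.1% and 37.5% in vehicle libraries. The internal-start transcripts together held 15.2%, 13.4% and 14.9% in caffeine libraries, against 10.7% and 7.57% in vehicle libraries. Of the 6 transcripts, the shares of NM_009505 and NM_001110267 were higher in every caffeine library, against 14.8% of transcripts in the genes tested for usage, that of NM_009505 by a narrow gap. The share of NM_001025250 was lower in every caffeine library, against 14.7% of such transcripts. The shares of NM_001025257, NM_001110266 and NM_001110268 overlapped, so that among the internal-start transcripts only NM_001110267 was separated on its own. In the test of transcript usage, which asks whether transcripts of a gene shift against each other, Vegfa had an edgeR adjusted p of 0.132 (unadjusted p 0.0110, rank 240 of 2897 genes), where 89 genes passed (3.07%). On the Ensembl transcript table, where 523 genes passed (6.94% of 7540), Vegfa had an adjusted p of 0.00663. The Ensembl transcript with most Vegfa counts, Vegfa-001, had 45.7, 44.1 and 38.5 CPM in caffeine libraries, against 31.0 and 33.8 CPM in vehicle libraries (log2 fold change 0.40, SE 0.14). The largest differences were in transcripts of low level, with at most 1.68 CPM in any library. Vegfa-007 had 1.01, 0.962 and 1.13 CPM in caffeine libraries, against 0 and 0.0429 CPM in vehicle libraries, and Vegfa-004 had 0.504, 1.12 and 1.17 CPM in caffeine libraries, against 0.0790 and 0.0429 CPM in vehicle libraries. Vegfa-010 had 1.36, 1.68 and 0.881 CPM in caffeine libraries, against 0.0395 and 0.386 CPM in vehicle libraries. The exons of the Ensembl transcripts are not in the table, so they were not matched to the RefSeq forms.

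The other members were listed with 1 or 2 transcripts each. Vegfb makes NM_011697 and NM_001185164, which use different splice sites and held 67.2% to 75.6% and 24.4% to 32.8% of Vegfb counts in caffeine libraries, against 68.8% to 70.2% and 29.8% to 31.2% in vehicle libraries. Their usage did not pass the test (edgeR adjusted p 0.966). Pgf is listed with NM_008827 and with NM_001271705, which starts further inside the gene. NM_001271705 held 2.36%, 0.963% and 36.0% of Pgf counts in caffeine libraries, against 41.9% and 27.8% in vehicle libraries. Caffeine replicate 3 matched the vehicle libraries and the other caffeine libraries did not. The edgeR adjusted p of usage was 0.451 with all libraries and 0.0217 without caffeine replicate 3. Vegfc, Kdr and Flt4 were listed with 1 transcript each.

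Promoter sequence is shown for Vegfa because its transcripts were listed from 2 starts, and NM_001110267, from the internal one, had the largest log2 fold change of the 6. The windows below are the 250 bases before each start, 5′ to 3′ on the minus strand, from RefSeq on GRCm38.p6. Capitals mark the letters ACGTG and GCGTG, the core of the element bound by hypoxia-inducible factors, and GGGCGG, the box bound by Sp1, each searched on both strands with no overlap among the matches shown. The search window also took in 50 bases after the start. The upstream start window lies at chr17:46032378-46032627 and the internal start window at chr17:46025164-46025413.
Vegfa upstream start: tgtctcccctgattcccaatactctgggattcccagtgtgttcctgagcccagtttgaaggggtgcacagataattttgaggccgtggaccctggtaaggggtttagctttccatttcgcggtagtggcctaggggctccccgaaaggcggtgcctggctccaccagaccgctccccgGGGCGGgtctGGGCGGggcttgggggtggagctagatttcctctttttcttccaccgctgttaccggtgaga
Vegfa internal start: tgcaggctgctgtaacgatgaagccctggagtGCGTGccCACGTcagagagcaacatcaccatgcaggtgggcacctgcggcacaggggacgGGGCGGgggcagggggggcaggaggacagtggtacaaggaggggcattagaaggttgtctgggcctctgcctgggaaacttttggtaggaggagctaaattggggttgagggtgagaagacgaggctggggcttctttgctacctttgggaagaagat

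The upstream window held 2 matches to GGGCGG and none to ACGTG or GCGTG. The internal window held 1 match to ACGTG, another to the variant GCGTG and a single Sp1 box, GGGCGG. Its ACGTG and GCGTG matches fall within the first 67 bases, which are coding sequence of exon 3. Of 32851 RefSeq mouse promoter windows of the same length, 19.6% held ACGTG, 32.4% held GCGTG and 35.7% held GGGCGG. Among the other members, the letters GCGTG were also at the main starts of Flt1 and Pgf (1 match each) and of Kdr and Vegfb (2 each), and ACGTG was at no main start of the 7 genes. Each of the 7 genes had at least 2 matches to GGGCGG at its main start, from 2 in Vegfa, Vegfc, Pgf and Kdr to 3 in Flt1 and Flt4 and 4 in Vegfb. The letters CGGAAG, a core bound by ETS factors that drive endothelial genes, were in none of the 9 windows of these genes, against 16.9% of all windows. A match is a description of the letters and does not show binding. Only these exact letters were searched, in 300 bases per start, so a missing match does not show that a site is absent.

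Other genes of the pathway were counted in 6 lists. No tested member of any list passed FDR 0.05. Among VEGF co-receptors and membrane regulators, 17 of 19 were tested, 5 had a positive and 12 a negative log2 fold change, and the median was -0.06. Nrp1, the co-receptor that presents Vegfa to Kdr, had a log2 fold change of -0.11 (SE 0.13), at 363, 368 and 333 CPM in caffeine libraries against 349 and 418 CPM in vehicle libraries. Nrp2, co-receptor of Flt4, had 43.4, 48.6 and 48.6 CPM in caffeine libraries, against 46.2 and 47.8 CPM in vehicle libraries. Of the 17, 1 had an unadjusted p under 0.05, against 5.2% of all tested genes. It was Itgb3, an integrin subunit that associates with Kdr. It had 31.6, 31.1 and 34.8 CPM in caffeine libraries, against 53.5 and 34.7 CPM in vehicle libraries (log2 fold change -0.44, edgeR adjusted p 0.941). The single high library was vehicle replicate 1, and without it the log2 fold change of Itgb3 was -0.09, and without vehicle replicate 2 it was -0.75. Vash1, an angiogenesis inhibitor made by endothelium, had a log2 fold change of -0.28 (SE 0.14) and of -0.05 on the Ensembl counts. Hspg2, the heparan sulphate proteoglycan perlecan, had a log2 fold change of 0.22 (SE 0.15), or 0.11 without caffeine replicate 3, and it ran from 0.05 to 0.39 according to which vehicle library was left out (replicate 1 for the lower value, replicate 2 for the higher).

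Downstream of the receptors, 37 of 39 signalling genes were tested, 23 with a positive and 14 with a negative log2 fold change (median 0.04), and none had an unadjusted p under 0.05. The smallest p values of this list belonged to the signalling protein Vav2 (log2 fold change 0.41, SE 0.20), the adaptor Shb, which binds phosphorylated Kdr (0.21, SE 0.13), and the adaptor Nck2 (0.20, SE 0.14). Without vehicle replicate 1 the value of Vav2 was 0.13 and that of Nck2 0.09, and without vehicle replicate 2 that of Vav2 was 0.73. Of genes that respond to VEGF in endothelium, 23 of 24 were tested, 13 positive and 10 negative (median 0.03). Of these 23, 1 had an unadjusted p under 0.05, against 5.2% of all tested genes. It was Nr4a1, an orphan nuclear receptor induced by VEGF in endothelial cells. It had 21.8, 18.3 and 19.3 CPM in caffeine libraries, against 15.04 and 15.4 CPM in vehicle libraries (log2 fold change 0.38, SE 0.16, edgeR adjusted p 0.943), and the groups did not overlap. Unc5b, a guidance receptor of vessels, and Nid2, a basement membrane protein, each had a log2 fold change of 0.20 (SE 0.12). Dll4, the Notch ligand of tip cells, had 16.1, 13.7 and 14.5 CPM in caffeine libraries, against 12.2 and 16.8 CPM in vehicle libraries, which overlapped.

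Hypoxia is the best-known inducer of Vegfa, and all 21 listed hypoxia regulators and targets were tested. Of these, 11 had a positive and 10 a negative log2 fold change, with a median of 0.01. Hif1a, the oxygen-regulated transcription factor subunit, had 565, 564 and 472 CPM in caffeine libraries, against 478 and 583 CPM in vehicle libraries (log2 fold change 0.01, SE 0.14). Epas1, its endothelial relative, had a log2 fold change of 0.03 (SE 0.21). Pgk1, a glycolytic target, was the 1 member of the list with an unadjusted p under 0.05, against 5.2% of all tested genes. It had 917, 994 and 903 CPM in caffeine libraries, against 1254 and 1090 CPM in vehicle libraries (log2 fold change -0.32, SE 0.13, edgeR adjusted p 0.924). Hk1, a hexokinase, had a log2 fold change of -0.19 (SE 0.12), and the glycolytic Eno1 had 0.58 (SE 0.31) on RefSeq counts, 0.20 on Ensembl counts, 0.26 without vehicle replicate 2 and 0.96 without vehicle replicate 1. Slc2a1, a glucose transporter and another target, ranged from 571 to 1176 CPM in caffeine libraries, against 834 and 952 CPM in vehicle libraries. The part of hypoxia in the level of Vegfa was not tested.

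All 18 endothelial transcription factors were tested, with 12 positive and 6 negative log2 fold changes (median 0.04) and none with an unadjusted p under 0.05. Sox18, a regulator of early arterial and lymphatic fate, had a log2 fold change of 0.27 (SE 0.15), the ETS factor Fli1 had -0.20 (SE 0.14) and the flow-responsive Klf4 had 0.37 (SE 0.30). Klf4 moved with the libraries used, to 0.09 and 0.10 when replicate 1 of caffeine or of vehicle was left out, and to 0.60 and 0.67 when replicate 2 of caffeine or of vehicle was. In the angiopoietin and Tie system, the other main endothelial ligand and receptor family, 7 of 8 genes were tested, 2 positive and 5 negative (median -0.03). Svep1, a matrix protein that acts with Tie1, had 14.7, 7.22 and 6.76 CPM in caffeine libraries, against 4.78 and 6.47 CPM in vehicle libraries (log2 fold change 0.77, SE 0.35, edgeR adjusted p 0.980). Without caffeine replicate 1, its highest library, the value was 0.32. Angpt2, a ligand of Tek that can block or activate it, had a log2 fold change of -0.39 (SE 0.28), and Angptl4, a secreted lipase inhibitor, had 0.37 (SE 0.31). The value of Angptl4 was 0.18 without caffeine replicate 3, 0.16 with the replicate block and 0.58 without caffeine replicate 1.

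Marker sums of the cell types in the dissection were set beside these values. The 23 endothelial and endocardial markers, all tested, summed to 2251 to 2690 CPM in caffeine libraries, against 2547 and 2550 CPM in vehicle libraries, with a median log2 fold change of -0.05. Egfl7, a secreted endothelial protein, was the 1 marker of that list with an unadjusted p under 0.05, against 5.2% of all tested genes. Its log2 fold change was 0.45 (SE 0.15, edgeR adjusted p 0.832). The 13 ventricular cardiomyocyte markers summed to 26160 to 29622 CPM in caffeine libraries, against 31884 and 34104 CPM in vehicle libraries, so that every caffeine library was the lower. Of these 13, 11 had a negative log2 fold change, and 3 had an unadjusted p under 0.05, against 5.2% of all tested genes. Their median was -0.26, beside 0.01 over all tested genes. The 7 epicardial markers were all positive (median 0.18) and summed to 363 to 511 CPM in caffeine libraries, against 358 and 407 CPM in vehicle libraries. Macrophage and blood markers, 6 of 10 tested, summed to 42.0 to 60.5 CPM in caffeine libraries, against 37.8 and 41.9 CPM in vehicle libraries, with 5 of the 6 positive. Lymphatic endothelial markers, 4 of 5 tested, summed to 73.3 to 94.97 CPM in caffeine libraries, against 55.9 and 90.0 CPM in vehicle libraries. Cushion mesenchyme markers, all 8 tested, summed to 895 to 1081 CPM in caffeine libraries, against 939 and 1290 CPM in vehicle libraries. Embryonic erythroid markers, 12 of 13 tested, summed to 7780 to 12255 CPM in caffeine libraries, against 7257 and 12610 CPM in vehicle libraries, with 11 of the 12 positive and a median log2 fold change of 0.22.

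Pgf and Flt1 are abundant in placenta, so trophoblast and decidua markers were read as well. Of 10 listed, 3 were tested, with sums of 230 to 269 CPM in caffeine libraries, against 214 and 217 CPM in vehicle libraries. Nearly all of that sum was Hand1, which the heart also makes, and Dcn. Prl8a2, a decidual prolactin-family gene and the third tested, had 39, 8 and 20 reads in caffeine libraries, against 10 and 4 reads in vehicle libraries (log2 fold change 1.66, SE 0.67, edgeR adjusted p 0.941). These overlapped, and caffeine replicate 1 was the highest. The untested placental genes had few reads over all 5 libraries: 27 for Synb, 21.6 for Prl2c2, 20 for Prl3b1, 5 for Prl3d1 and 2 for Tpbpa. Foregut, hepatic and yolk sac endoderm markers, 9 of 13 tested and all negative, had a median log2 fold change of -1.37. They summed to 15.8 to 66.4 CPM in caffeine libraries, against 22.5 and 161 CPM in vehicle libraries. The high sum was that of vehicle replicate 2 alone, and vehicle replicate 1 lay inside the range of the caffeine libraries. The part of the cardiomyocyte, epicardial, erythroid, macrophage, trophoblast and endoderm markers in the values of the VEGF genes was not tested.

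The genes whose pattern over the 5 libraries came closest to each member were found by the root mean square difference of centred log2 CPM among 10009 genes of mean log2 CPM of at least 3. For Vegfa these were Stx16 (0.04), Six5 (0.05) and Nr4a1 (0.05). Nr4a1 also had the smallest p of the VEGF response list, which rests on the same 5 values and is not a separate result. For Kdr the closest genes were Myo18a, Robo2 and Amer1 (each 0.02). Flt1 came closest to Zfp788, Srgap1 and Cep250, and Flt4 to Fam105b, Naca and Wfs1. Among the other ligands, Vegfb came closest to Ifi30, Egln2 and Mlst8, Vegfc to H2-D1, Cav2 and Acat1, and Pgf to Asrgl1, Alg14 and Ccdc91. With 5 libraries and this many genes, close neighbours are found for any pattern, and the distances describe likeness only.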

How the data were processed

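RNA of pooled ventricles was sequenced in 3 caffeine and 2 vehicle libraries, and the groups were taken from the labels. The deposited values are the authors' estimated counts (fractions of reads occur) of genes and of transcripts, on RefSeq and on Ensembl release 71, per the file headers. TopHat and Partek are the tools, and mm10 and GRCm38 the builds, in the submitters' processing notes, which give no versions. Read strand is not given in the sources used here.

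Estimated counts were rounded, filtered with filterByExpr, scaled by TMM (factors 0.970 to 1.02) and tested with edgeR 4.0.16 in R 4.3.3 (glmQLFit, robust, two-sided). P-values were adjusted by Benjamini-Hochberg over every feature tested, at 0.05. The common biological coefficient of variation was 0.145. SE is the absolute log2 fold change divided by √F. Usage was tested with diffSpliceDGE. Alternatives used DESeq2 1.42.0 and limma 3.58.1 (voom), among others. Steps were tested on simulated data. P-values measure the spread between pools, which the labels describe as pooled embryos of the same dams. Totals per library bound the precision, and printed intervals come from the fit over libraries.

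The members, gene lists and tests were chosen with earlier results of these data known. The rule named all members, all Vegfa and Flt1 transcripts, the 3 smallest p of each pathway list and the 3 nearest genes in pattern. Nrp1, Nrp2, Figf, Dll4, Hif1a, Epas1, Slc2a1, Pecam1, Cdh5, Nkx2-5 and Egfl7 were named outside it. So were Myh6 and, from the trophoblast and decidua list, Prl8a2, Hand1, Dcn, Synb, Prl2c2, Prl3b1, Prl3d1 and Tpbpa. Ends of genes are the deposited stop minus 1, since 5907 of 8555 genes with the same start as RefSeq had a stop 1 past its end and 249 had it equal. The planned share of the short Flt1 form could not be had from the RefSeq table, and the Ensembl share was used instead.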

Additional observations from a re-analysis of the deposited data

How the results depend on the processing

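Counts over all features depended on the setting. Genes past FDR 0.05 numbered 1, against 6 without the low-count filter, 18 with DESeq2, 2 on Ensembl counts, 52 with the replicate block and 0 to 18 with a library left out. Transcripts numbered 0, against 194 with DESeq2, 9 with the replicate block and 0 to 1 with a library left out. Genes with changed usage numbered 89, against 28 with the Simes adjustment, 523 on Ensembl transcripts, 3 with the replicate block (chosen after seeing the data) and 15 to 53 with a library left out. In the test of gene counts, no VEGF gene passed under any alternative run. Of 488 values of single genes, transcripts and usage under these alternatives, 472 kept direction and side of the threshold, 4 passed it (NM_001110267 and NM_009505 with DESeq2, Vegfa usage on Ensembl transcripts, Pgf usage without caffeine replicate 3) and 12 changed sign. With the replicate block, Vegfb had a log2 fold change of -0.0012 and NM_001185164 of -0.17. With a library left out, Vegfb ran from -0.10 to 0.22, Vegfc from -0.024 to 0.47, NM_001185164 from -0.16 to 0.19, NM_011697 from -0.089 to 0.26, NM_008827 from -0.030 to 0.29, NM_001025250 from -0.15 to 0.14 and the log2 ratio of Flt1 to Kdr from -0.13 to 0.10. The cause was not tested. The labels do not say what a replicate number shares, and only 2 numbers occur in both groups; deviations of same-numbered libraries correlated at -0.02 and 0.13 across genes. Where 1 vehicle library was left, it was assumed to vary like the caffeine libraries. With 3 against 2 libraries, the width of the intervals limits what could be seen, most of all for Pgf, Vegfc and the low transcripts.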
